A study of Homo sapiens with 4 samples.

Results

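The comparison described here is between 2 RNA-seq libraries of PSN-1, a human line grown from a pancreatic tumour: 1 from cells transfected with an oligonucleotide that mimics the microRNA miR-4800-3p, and 1 from cells transfected with a scrambled control oligonucleotide. Of the 26255 gene symbols listed, 9172 entered it. These averaged 5 FPKM or more in the 2 libraries (fragments per kilobase of transcript, scaled to the number of mapped fragments, so that levels of different genes can be compared per length) and were not short RNA genes by symbol, which removed 61 others. At the threshold, DENND3 and ASRGL1 were just inside and TCF7, with a mean of 4.997 FPKM, and SLC27A1 just outside. The series holds 4 libraries in all, since the same pair of oligonucleotides was put into MIA PaCa-2, another line from a pancreatic tumour, also with 1 library per oligonucleotide. Its stated aim was to find messenger RNAs targeted by miR-4800-3p. The labels give the mimic as overexpression, both lines as epithelial, and no time, dose or replicate culture. With 1 library per group no test was possible: each value describes this pair of libraries, and the spread between cultures was not measured.

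A microRNA guides an Argonaute protein to messenger RNAs, mostly through pairing of its seed, the bases near its 5′ end, with sites in the 3′ untranslated region (3′ UTR). Such sites usually lower the level of the transcript or its translation by a modest amount, and many transcripts share a site. A transfected mimic can lower transcripts that carry sites and, through them, other genes that carry none. The mature sequence is shown because the site search below rests on it, with the seed (bases 2 to 8) in capitals, from RefSeq on GRCh38.p14 (chr4:2250091-2250109, minus strand, 19 bases).
miR-4800-3p: cAUCCGUCcgucuguccac
The matching sites in a transcript are the 8-mer GACGGATA, its first 7 bases (GACGGAT), its last 7 bases (ACGGATA) and the 6 bases common to these (ACGGAT), called the core below. The library kit selects messenger RNA, so neither the mature microRNA nor the uptake of the mimic was measured. The exact sequence of the mimic used is not given in the sources used here.

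Some of the lowest genes in the mimic library carried such sites, but most did not. A 3′ UTR was searched in 8953 measured genes, and 228 had a 7-mer or 8-mer site. Of the 45 searched genes at least 2-fold lower in the mimic library, 6 had 1. The windows below, read from GENCODE 29 transcripts (GRCh38), end at or just after the site, which is in capitals, and begin at the 3′ UTR start where that is near; they are a selection, made after the values were seen, from the 12 lowest site carriers and the 4 carriers of the 8-mer that were at least 1.5-fold lower. The sites lie in exonic 3′ UTR sequence at chr15:100916010-100916017 (ALDH1A3, plus strand), chr4:83604771-83604777 (AGPAT9, now GPAT3, plus strand), chr14:34712378-34712384 (CFL2, minus strand), chr11:34471657-34471663 (CAT, plus strand), chr9:113597073-113597080 (RGS3, plus strand), chr2:120293271-120293277 (RALB, plus strand), chr5:142312266-142312272 (SPRY4, minus strand) and chr12:57096158-57096165 (STAT6, minus strand).
ALDH1A3: aacaaaaacaaatgtgttatccGACGGATA
AGPAT9: gagGACGGATg
CFL2: gcctattttagtgatatggcagcACGGATA
CAT: atttaaaaaaaaaatttgttttGACGGATg
RGS3: ccagaggctgtgtctctggacaGACGGATA
RALB: gtgtcaaggtGACGGATg
SPRY4: tagctacccttgccacagttgtGACGGATg
STAT6: cccattctgacccagggcctagGACGGATA
ALDH1A3, RGS3 and STAT6 have the 8-mer, CFL2 has the 7-mer ending in A, and the others have the 7-mer that pairs with bases 2 to 8.

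The 2 libraries were alike in what dominated them, and the mimic library was estimated to be 1.26 times as deep as the scramble library. Symbols above 0 FPKM numbered 17294 under the mimic and 16783 under the scramble, and the 10 most abundant genes took 7.39% and 7.40% of the summed FPKM. The spacing of the low values gave an estimate of depth: at 1 FPKM, a transcript had 15.9 and 12.6 fragments for each kb. A 2 kb transcript at 5 FPKM then rested on about 159 and 126 fragments, which gives its log2 ratio a counting error of 0.17 (SE), and at 20 FPKM of 0.086. Across the 9172 genes the log2 levels of the 2 libraries had a Pearson r of 0.976. Keratin genes of simple epithelia were abundant with both oligonucleotides: KRT8 was at 537 FPKM under the mimic and 665 under the scramble, and KRT18 at 556 and 495 FPKM. EPCAM, an epithelial surface protein, was at 28.4 and 24.1 FPKM, while E-cadherin (CDH1) was at 0.720 and 1.51 FPKM and CLDN7 at 0.0505 and 0.445 FPKM, so the epithelial label was met by 5 of 8 markers. Of the markers of other cells, 1 of 12 leukocyte genes was measured (CD68, at 38.7 and 35.3 FPKM, with PTPRC at 0.423 and 0.433 FPKM), 2 of 9 endothelial (KDR and EGFL7), 4 of 12 fibroblast and stellate, 1 of 9 acinar (PRSS1) and 0 of 6 islet genes. The fibroblast and stellate list summed to 84.3 FPKM under the mimic and 102 under the scramble, with FAP, THY1 and POSTN at 0. Its 4 measured members were all below 0: COL3A1 at 36.1 and 45.6 FPKM, COL1A1 at 10.2 and 12.6, PDGFRB at 19.6 and 20.9 and LUM at 14.3 and 19.6 FPKM. COL3A1 was thus above EPCAM in both libraries, and the part of these markers in the results on mesenchymal genes was not tested. Fewer cells of a kind and less RNA per cell cannot be told apart in such bulk RNA.

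Most genes differed little between the libraries. The change of a gene is given throughout as the log2 ratio of mimic to scramble after adding 1 FPKM to each, which makes the difference of low genes look smaller. Of the 9172 genes, 4378 were above 0 (47.7%) and 4794 below 0 (52.3%), the median was -0.014, and the 5th and 95th percentiles were -0.49 and 0.42. At least 2-fold higher in the mimic library were 33 genes (0.36%), and at least 2-fold lower 47 genes (0.512%). At least 1.5-fold higher were 195 genes (2.13%) and at least 1.5-fold lower 295 genes (3.22%). These shares are the background for every count of list members below. Genes past 2-fold included abundant ones, such as FOS and JUN on the higher side and, on the lower side, ATP5I, CD63, a tetraspanin of endosomes and exosomes (195 FPKM with the mimic, 433 with the scramble), and HTRA3, a secreted serine protease (48.1 and 120 FPKM). CD63 and HTRA3 were named after their values were seen.

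**Figure D1:**
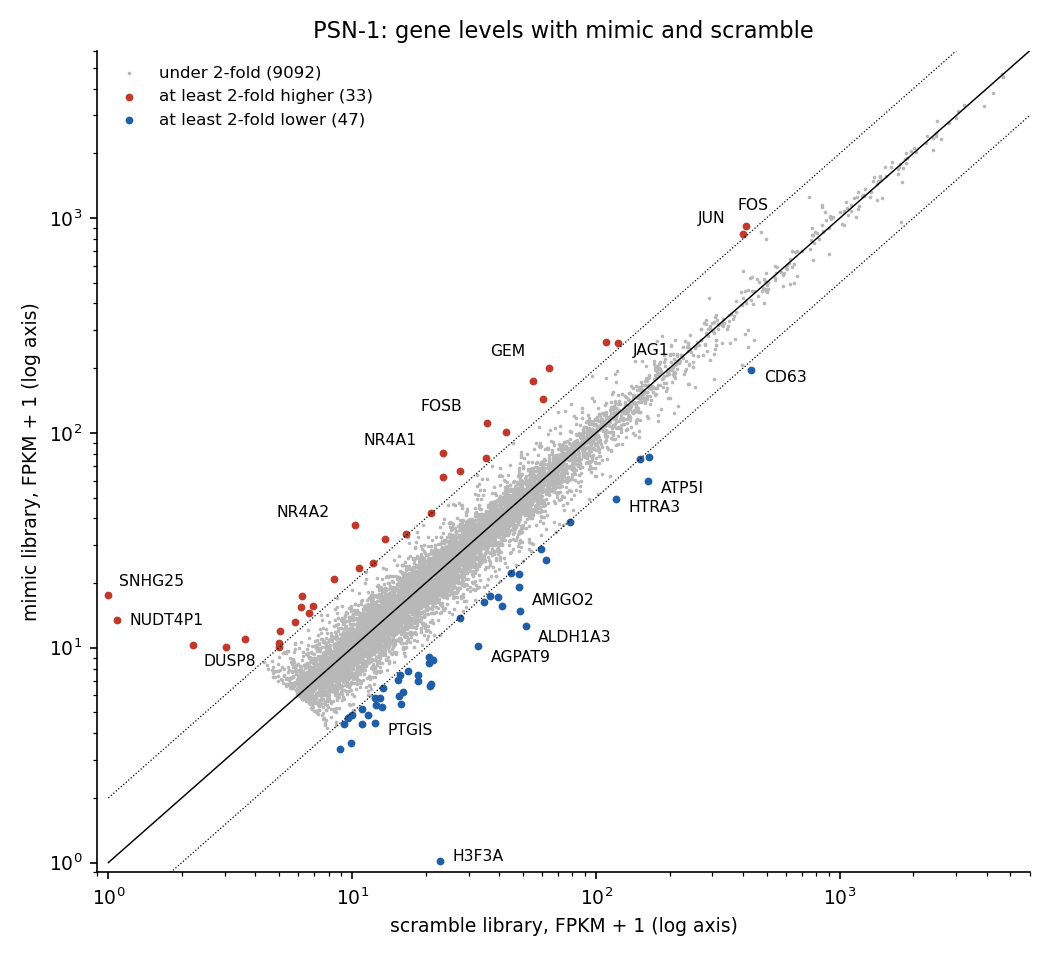
Level of each of the 9172 genes in the PSN-1 mimic library (vertical, FPKM + 1, log axis) against the scramble library (horizontal, FPKM + 1, log axis), 1 point per gene and 1 library per axis, with the solid line at equality and dotted lines at 2-fold. The 33 genes at least 2-fold higher (red) include FOS and JUN, and the 47 genes at least 2-fold lower (blue) are led by H3F3A, whose reads may be shared with a copy.

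The lowest changes were those of an enzyme of retinoic acid synthesis, enzymes of lipid and prostaglandin metabolism, and small proteins of the splicing and ATP synthase complexes. ALDH1A3, the aldehyde dehydrogenase that oxidises retinaldehyde to retinoic acid, was at 11.7 FPKM under the mimic and 50.4 under the scramble (change -2.02, with a counting error of 0.061 on the log2 ratio). AMIGO2, an adhesion protein with leucine-rich repeats, was at 13.8 and 47.5 FPKM (-1.71). AGPAT9, which adds the first fatty acid to glycerol 3-phosphate in triglyceride synthesis, was at 9.22 and 31.9 FPKM (-1.69). Both ALDH1A3 and AGPAT9 have a 3′ UTR site, printed above, and AMIGO2 has none. WRB, the membrane receptor that inserts tail-anchored proteins into the endoplasmic reticulum, was at 5.61 and 19.9 FPKM (-1.66). SNRPE, which belongs to the protein ring shared by spliceosomal snRNPs, was at 5.81 and 19.996 FPKM (-1.62), and LSM6, a protein of the U6 particle, at 4.50 and 14.9 FPKM (-1.53). SNRPE has no site and LSM6 and WRB have a 7-mer or 8-mer in the coding sequence, WRB with the core alone in its 3′ UTR.

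PTGIS, the prostacyclin synthase, was at 3.47 FPKM under the mimic and 11.4 under the scramble (-1.48), and PTGES2, a prostaglandin E synthase, at 14.6 and 40.2 FPKM (-1.40). PLIN4, a lipid droplet coat protein, was at 2.59 and 8.91 FPKM (-1.47). ATP5I, a small membrane subunit of ATP synthase, was the most abundant of the 15 lowest genes at 59.0 and 162 FPKM (-1.44). Others were ADAMTS15, a secreted matrix protease (5.996 and 17.7 FPKM), NUDCD2 (4.95 and 14.5 FPKM) and the transcript LOC103021295 (5.20 and 15.1 FPKM). H3F3A, a gene of histone H3.3, had 0.0127 FPKM in the mimic library and 21.96 in the scramble library, but its near-identical copy H3F3AP4 was at 173 and 54.1 FPKM, so that reads may have been divided between them differently in each library and both values are uncertain. H3F3B, which encodes the same protein from another locus, was at 63.2 and 59.4 FPKM. The strand setting of the authors' counting is not given in the sources used here, and some of these genes overlap others on the opposite strand: ALDH1A3 shares 1280 exonic bases with the antisense gene AC015712.2, WRB 699 with LCA5L and ATP5I 242 with MYL5.

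**Figure D2:**
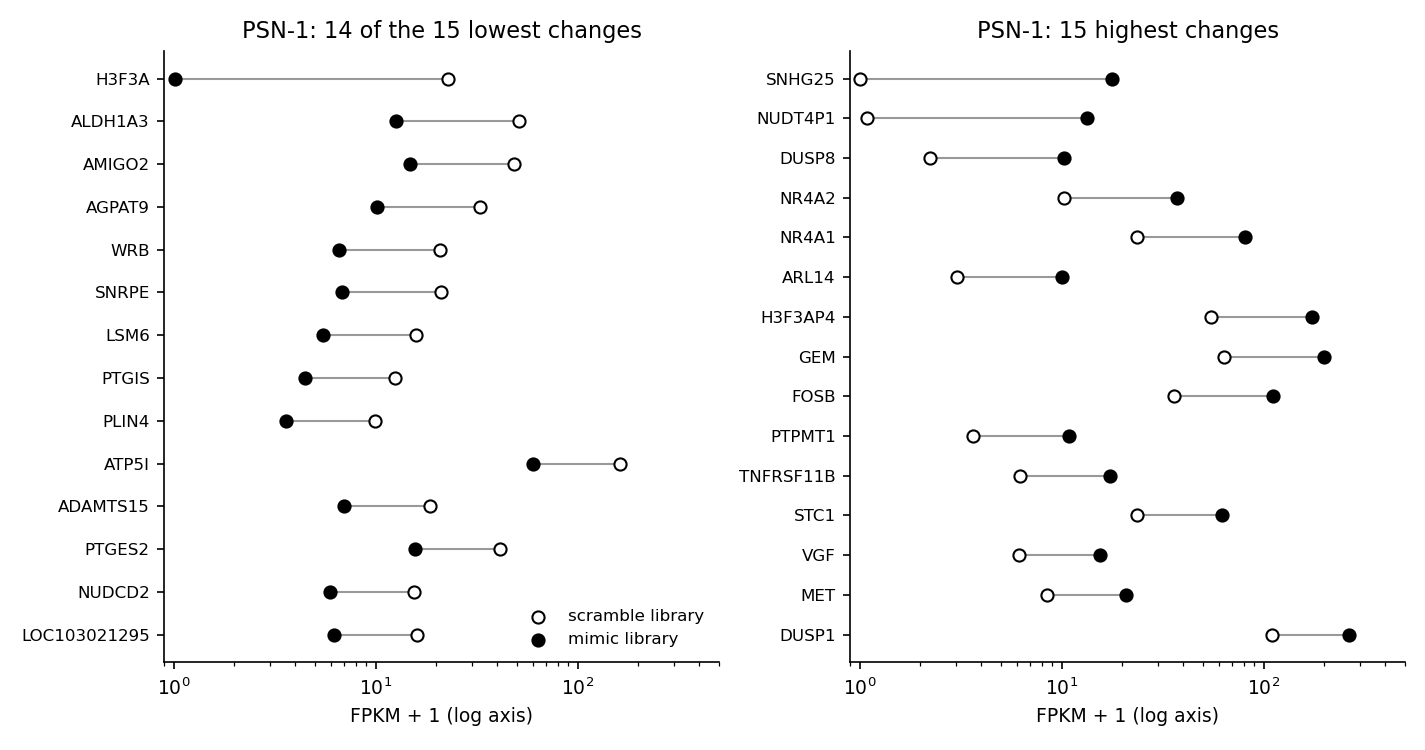
Levels of 14 of the 15 genes with the lowest changes (left) and the 15 with the highest (right) in the PSN-1 scramble library (open circles) and mimic library (filled circles), as FPKM + 1 on a log axis, 1 library per circle. ALDH1A3 went from 50.4 FPKM with the scramble to 11.7 with the mimic, and NR4A1 from 22.5 to 79.5 FPKM.

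The 15 highest changes included 2 nuclear receptors of the NR4A family, the AP-1 subunit FOSB and 2 phosphatases of MAP kinases. DUSP8, a phosphatase that acts on the stress kinases JNK and p38, was at 9.28 FPKM under the mimic and 1.22 under the scramble (2.21, with a counting error of 0.18). NR4A2 was at 36.3 and 9.30 FPKM (1.86) and NR4A1 at 79.5 and 22.5 FPKM (1.77); both are orphan nuclear receptors that are transcribed within minutes of a stimulus. GEM, a small GTP-binding protein that binds calcium channels, was at 199 and 62.9 FPKM (1.65). FOSB, an AP-1 subunit, was at 110 and 34.9 FPKM (1.63), and DUSP1, another MAP kinase phosphatase, at 265 and 109 FPKM (1.28). None of these 6 genes has a 3′ UTR site.

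Of the other 9 high genes, 4 encode secreted or membrane signalling proteins. MET, the receptor of hepatocyte growth factor, was at 19.8 FPKM under the mimic and 7.44 under the scramble (1.30). STC1, the glycoprotein stanniocalcin 1, was at 61.2 and 22.5 FPKM (1.40), VGF, a secreted neuropeptide precursor, at 14.4 and 5.14 FPKM (1.33), and TNFRSF11B, the decoy receptor osteoprotegerin, at 16.4 and 5.20 FPKM (1.49). ARL14, a small GTPase of vesicle transport, was at 9.05 and 2.04 FPKM (1.73). PTPMT1, a mitochondrial phosphatase, was at 9.93 and 2.64 FPKM (1.59), and it shares 1265 exonic bases with KBTBD4 on the opposite strand. SNHG25, a host gene of small nucleolar RNAs, was at 16.7 FPKM with the mimic and listed at 0 with the scramble, and NUDT4P1 was at 12.4 and 0.0891 FPKM. No fold is given for either: the annotated transcript of SNHG25 has 278 bases, 133 of them shared with SNORA50C, and NUDT4P1 has a copy, NUDT4P2, at 28.6 and 47.1 FPKM.

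Immediate-early genes, which respond to signals without new protein synthesis, were higher in the mimic library more often than genes at large. Of 36 listed, 33 were measured, and 24 of these were above 0 against 47.7% of all genes. At least 1.5-fold higher were 13 of the 33 and at least 1.5-fold lower was 1, where all genes gave 2.13% and 3.22%. The median change was 0.48 against -0.014 over all genes. Among the AP-1 subunits, FOS was at 913 FPKM under the mimic and 411 under the scramble (1.15), JUN at 842 and 400 FPKM (1.07) and JUND at 143 and 59.8 FPKM (1.24). ATF3, a stress-induced factor of the same superfamily, was at 99.7 and 41.7 FPKM (1.24), and BTG2, an antiproliferative gene, at 9.54 and 3.999 FPKM (1.08). The list was not uniform: ZFP36L1, an mRNA-destabilising protein, was at 29.5 and 54.3 FPKM (-0.86), KLF2 at 13.2 and 17.9 FPKM (-0.41), and MYC at 512 and 543 FPKM (-0.08).

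Negative regulators of MAP kinase signalling were divided, 9 above 0 and 10 below, with a median of -0.01 among 19 measured of 20. Besides DUSP8 and DUSP1, 2 further phosphatases were at least 1.5-fold higher: DUSP10, which prefers JNK and p38, at 33.4 FPKM under the mimic and 17.4 under the scramble (0.91), and DUSP2 at 45.3 and 23.8 FPKM (0.90). The 4 members at least 1.5-fold lower included the Sprouty proteins, inhibitors of receptor tyrosine kinase signalling: SPRY1 at 21.0 and 47.1 FPKM (-1.13) and SPRY4 at 29.7 and 53.01 FPKM (-0.82). The other lower members were the ERK phosphatases DUSP6 at 123 and 208 FPKM (-0.75) and DUSP5 at 249 and 419 FPKM (-0.75). SPRY4 is the member of these whose 3′ UTR site is printed above. Ligands and receptors of the EGF family differed less, between -0.30 for AREG and 0.44 for HBEGF among 6 measured of 13, and EGFR was at 58.7 and 44.9 FPKM (0.38).

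Subunits, inhibitors and targets of NF-kB were at least 1.5-fold higher in 9 of 30 measured members, and at least 1.5-fold lower in 1. The median of the list was 0.12, with 18 members above 0 and 12 below. TNFAIP3, the feedback inhibitor A20, was at 65.2 FPKM under the mimic and 26.6 under the scramble (1.26), and TRAF1, an adaptor of TNF receptors, at 14.7 and 5.91 FPKM (1.18). CXCL8, the chemokine interleukin 8, was at 32.8 and 15.6 FPKM (1.02), and the inhibitor NFKBIE at 21.6 and 10.4 FPKM (0.99). The subunits RELB (45.1 and 25.4 FPKM) and NFKB1 (50.5 and 31.7 FPKM) were also higher. The lowest members were cytokines: IL1B was at 5.65 and 10.8 FPKM (-0.83) and CSF2 at 40.2 and 58.5 FPKM (-0.53). Both are secreted signals, as are CXCL8 and other members that were higher.

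Interferon-stimulated genes were mostly lower in the mimic library, by small amounts. Of 55 listed, 40 were measured, 30 of them below 0 against 52.3% of all genes, 5 at least 1.5-fold lower and 0 at least 1.5-fold higher, with a median of -0.18. UBE2L6, the enzyme that conjugates ISG15, was at 36.2 FPKM under the mimic and 71.9 under the scramble (-0.97), and XAF1, a pro-apoptotic interferon target, at 4.43 and 8.76 FPKM (-0.85). OASL, a relative of the antiviral oligoadenylate synthetases, was at 4.25 and 7.79 FPKM (-0.74). GBP1, a large GTPase, was at 9.13 and 15.6 FPKM (-0.71), and the antiviral GTPase MX1 at 3.96 and 6.56 FPKM (-0.61). The RNA sensor DDX58 (RIG-I) was at 9.11 and 6.18 FPKM (0.49). Genes of HLA class I antigen presentation were below 0 in 14 of 19 measured (median -0.14), led by the immunoproteasome subunit PSMB10 at 22.2 and 39.0 FPKM (-0.79). The HLA-B and HLA-C heavy chains were near equality (67.0 and 66.8 FPKM, and 67.5 and 69.0 FPKM).

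Promoter letters of these groups were read from RefSeq (GRCh38.p14, 250 bases before to 50 after the start), where 7564 of the measured genes had an entry. Of those genes 48.1% were above 0 and 51.9% below. The interferon-stimulated response element, searched on both strands as GAAA, any 2 bases and GAAA again, was found in 194 of these promoters (2.56%). Of those 194 genes, 116 were below 0, 10 at least 1.5-fold lower and 0 at least 1.5-fold higher, with a median of -0.057 against -0.012 for all 7564. It was in 20 of the 33 interferon list members with an entry. The cAMP response element TGACGTCA was found in 276 promoters (3.65%), of whose genes 168 were above 0, 12 at least 1.5-fold higher and 4 lower, with a median of 0.051. DUSP8, VGF, DUSP1, JUND and CHMP1B were its 5 carriers at least 2-fold higher, and ATP5I its 1 carrier at least 2-fold lower. Of the 24 immediate-early list members with an entry, only 2 carry it, JUND and MAFF. The AP-1 site TGANTCA, in 312 promoters (4.12%), had a median of 0.019, and the NF-kB site, in 989 (13.1%), of -0.032. Of the 24 NF-kB list members with an entry, 11 carry the NF-kB site, with a median of 0.55. The serum response element (CArG box), known from promoters of immediate-early genes, was in 80 promoters (1.06%), of whose genes 45 were below 0, 3 at least 1.5-fold higher and 6 lower (median -0.060). In the immediate-early list, 2 of the 24 members with an entry carry it, EGR1 and SRF. A match is a description of letters, and binding was not measured. Windows of 60 bases around matches are shown for a gene of each kind, the match in capitals: GBP1 (chr1:89065301-89065360, minus strand), MX1 (chr21:41420544-41420603, plus strand), JUND (chr19:18281789-18281848, minus strand) and TNFAIP3 (chr6:137867167-137867226, plus strand).
GBP1: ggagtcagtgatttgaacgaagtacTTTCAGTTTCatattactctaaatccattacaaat
MX1: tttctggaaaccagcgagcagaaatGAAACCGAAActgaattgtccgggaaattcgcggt
JUND: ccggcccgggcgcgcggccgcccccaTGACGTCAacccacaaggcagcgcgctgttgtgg
TNFAIP3: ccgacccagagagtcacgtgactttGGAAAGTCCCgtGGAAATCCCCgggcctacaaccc
GBP1 carries the element on the opposite strand and TNFAIP3 carries 2 NF-kB matches 2 bases apart.

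Heat shock and chaperone genes were above 0 in 27 of 30 measured members, with a median of 0.19. HSP90AA1, the inducible HSP90, was at 862 FPKM under the mimic and 475 under the scramble (0.86), and the HSP70 co-chaperones DNAJA1 and DNAJB1 were at 281 and 186 FPKM (0.59) and at 214 and 144 FPKM (0.57). HSPA8, the constitutive HSP70, was at 1153 and 844 FPKM (0.45). Of these genes HSP90AA1 and DNAJA1 were at least 1.5-fold higher. HSF1, the factor that drives heat shock genes, was lower at 34.9 and 50.7 FPKM (-0.52). Genes of the unfolded protein and integrated stress responses were above 0 in 22 of 34 (median 0.09), with ATF3 the sole member at least 1.5-fold higher and SDF2L1 the sole member at least 1.5-fold lower (11.3 and 18.2 FPKM).

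Genes of DNA replication were below 0 in 36 of 48 measured, and those of mitosis and the spindle in 34 of 46, with medians of -0.18 and -0.16 and few large differences. At least 1.5-fold lower were 3 replication genes and 0 mitosis genes. FEN1, the flap endonuclease that trims Okazaki fragments, was at 9.67 FPKM under the mimic and 16.2 under the scramble (-0.69), CHAF1B, a histone chaperone subunit, at 6.09 and 10.1 FPKM (-0.65), and RRM1, the large subunit of ribonucleotide reductase, at 22.7 and 35.0 FPKM (-0.60). RRM1 has the 7-mer ending in A in its 3′ UTR. The mitotic kinesin KIFC1 was at 6.66 and 9.69 FPKM (-0.48) and the kinase PLK1 at 27.2 and 36.3 FPKM (-0.40), while KIF23, a kinesin of cytokinesis, was at 12.6 and 9.43 FPKM (0.38). Among D-type cyclins, which start the G1 phase with CDK4 and CDK6, the members went opposite ways: CCND1 was at 18.6 and 34.6 FPKM (-0.86) and CCND3 at 36.2 and 18.5 FPKM (0.93). CDC25B, a phosphatase that activates CDKs, was at 162 and 253 FPKM (-0.64). The 25 measured cyclin, CDK and inhibitor genes had a median of -0.0021, with 12 above 0 and 13 below.

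Lists of multi-subunit complexes had medians near 0, and some held members past 1.5-fold. Of 29 measured genes on the snRNP and LSM list, SNRPE, LSM6 and NAA38 (6.05 FPKM under the mimic and 14.4 under the scramble, -1.12) were at least 2-fold lower. NAA38 was put on the list by symbol alone. Which gene the authors' annotation meant by it is not given, so its place among splicing genes is uncertain. LSM3 was higher at 41.4 and 20.3 FPKM (0.99), and the list median was -0.06. Of 76 nuclear genes of the respiratory chain and ATP synthase, 63 were below 0, against 52.3% of all genes, with a median of -0.09. The fifth of searched genes with the shortest transcripts had a median of -0.063, and the part of length in this list was not tested. At least 1.5-fold lower were 3 of the 76: ATP5I, ATP5G3, which encodes the membrane ring subunit (23.2 and 45.7 FPKM, -0.95), and NDUFA8 of complex I (50.4 and 80.3 FPKM, -0.66). COX6C of complex IV was at 86.0 and 58.6 FPKM (0.55). WRB was the 1 of 8 tail-anchored insertion genes past 1.5-fold, and its partner CAMLG was at 26.3 and 26.2 FPKM. The 78 measured cytosolic ribosomal protein genes, which are abundant and uniform, had a median of 0.02 and 0 members past 1.5-fold either way. In the membrane-scission complex ESCRT (31 measured, median 0.01), CHMP1B was at 31.1 and 12.7 FPKM (1.23) and the associated deubiquitinase STAMBPL1 at 4.40 and 11.6 FPKM (-1.22).

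Of 22 measured aldehyde dehydrogenase and retinoid genes, 9 were above 0 and 13 below (median -0.13), and ALDH1A3 was 1 of 5 at least 1.5-fold lower, with 0 higher. DHRS3, which reduces retinaldehyde back to retinol, was at 15.6 FPKM under the mimic and 30.9 under the scramble (-0.94). STRA6, the retinol uptake receptor, was at 5.44 and 9.32 FPKM (-0.68), and the retinoid X receptor RXRA at 27.8 and 44.5 FPKM (-0.66). Mitochondrial ALDH2 was at 53.1 and 51.7 FPKM (0.04), and ALDH1A1 had no signal in the mimic library and 0.073 FPKM in the scramble library. In triglyceride synthesis and lipid droplets, 3 of 21 measured genes were at least 1.5-fold lower and 0 higher (median -0.15): AGPAT9, PLIN4 and G0S2, an inhibitor of triglyceride lipase (5.02 and 10.6 FPKM, -0.94). The droplet coat proteins PLIN2 (82.3 and 81.9 FPKM) and PLIN3 (78.8 and 74.1 FPKM) were near equality. In prostaglandin metabolism PTGIS and PTGES2 were the 2 of 10 measured genes past 1.5-fold, and the cyclooxygenase PTGS2 was at 37.7 and 28.5 FPKM (0.39).

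Antioxidant genes had a median of -0.07 over 33 measured. CAT, the catalase that breaks down hydrogen peroxide, was at 15.4 FPKM under the mimic and 33.8 under the scramble (-1.09), and it has a 3′ UTR site. HMOX1, heme oxygenase 1, was at 45.7 and 24.9 FPKM (0.85) and GCLM, a subunit of the enzyme that limits glutathione synthesis, at 20.6 and 13.1 FPKM (0.61). TXNRD1 and SRXN1, like HMOX1 and GCLM known targets of the factor NRF2, were at 145 and 201 FPKM (-0.47) and at 16.3 and 23.3 FPKM (-0.49). NRF2 targets among these 33 genes therefore lay on both sides of 0.

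Epithelial and mesenchymal genes showed no common direction. Of 21 measured epithelial genes 9 were above 0 and 12 below (median -0.10), and of 18 mesenchymal genes and factors 7 and 11 (median -0.06). ELF3, an epithelial transcription factor, was at 24.5 FPKM under the mimic and 61.6 under the scramble (-1.29), and the protease inhibitor SPINT1 at 3.86 and 9.02 FPKM (-1.04). The tight junction protein CLDN1 was at 12.7 and 7.71 FPKM (0.65). SNAI2, a repressor of epithelial genes, was at 10.1 and 5.68 FPKM (0.73), while its relative SNAI1 was at 67.6 and 97.6 FPKM (-0.52). The gelatinase MMP2 was at 31.0 and 52.2 FPKM (-0.74) and thrombospondin THBS1 at 52.9 and 84.9 FPKM (-0.67). Vimentin (VIM) was at 1235 and 1144 FPKM (0.11). PLAT, the tissue plasminogen activator, was at 19.8 and 35.0 FPKM (-0.79).

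**Figure D3:**
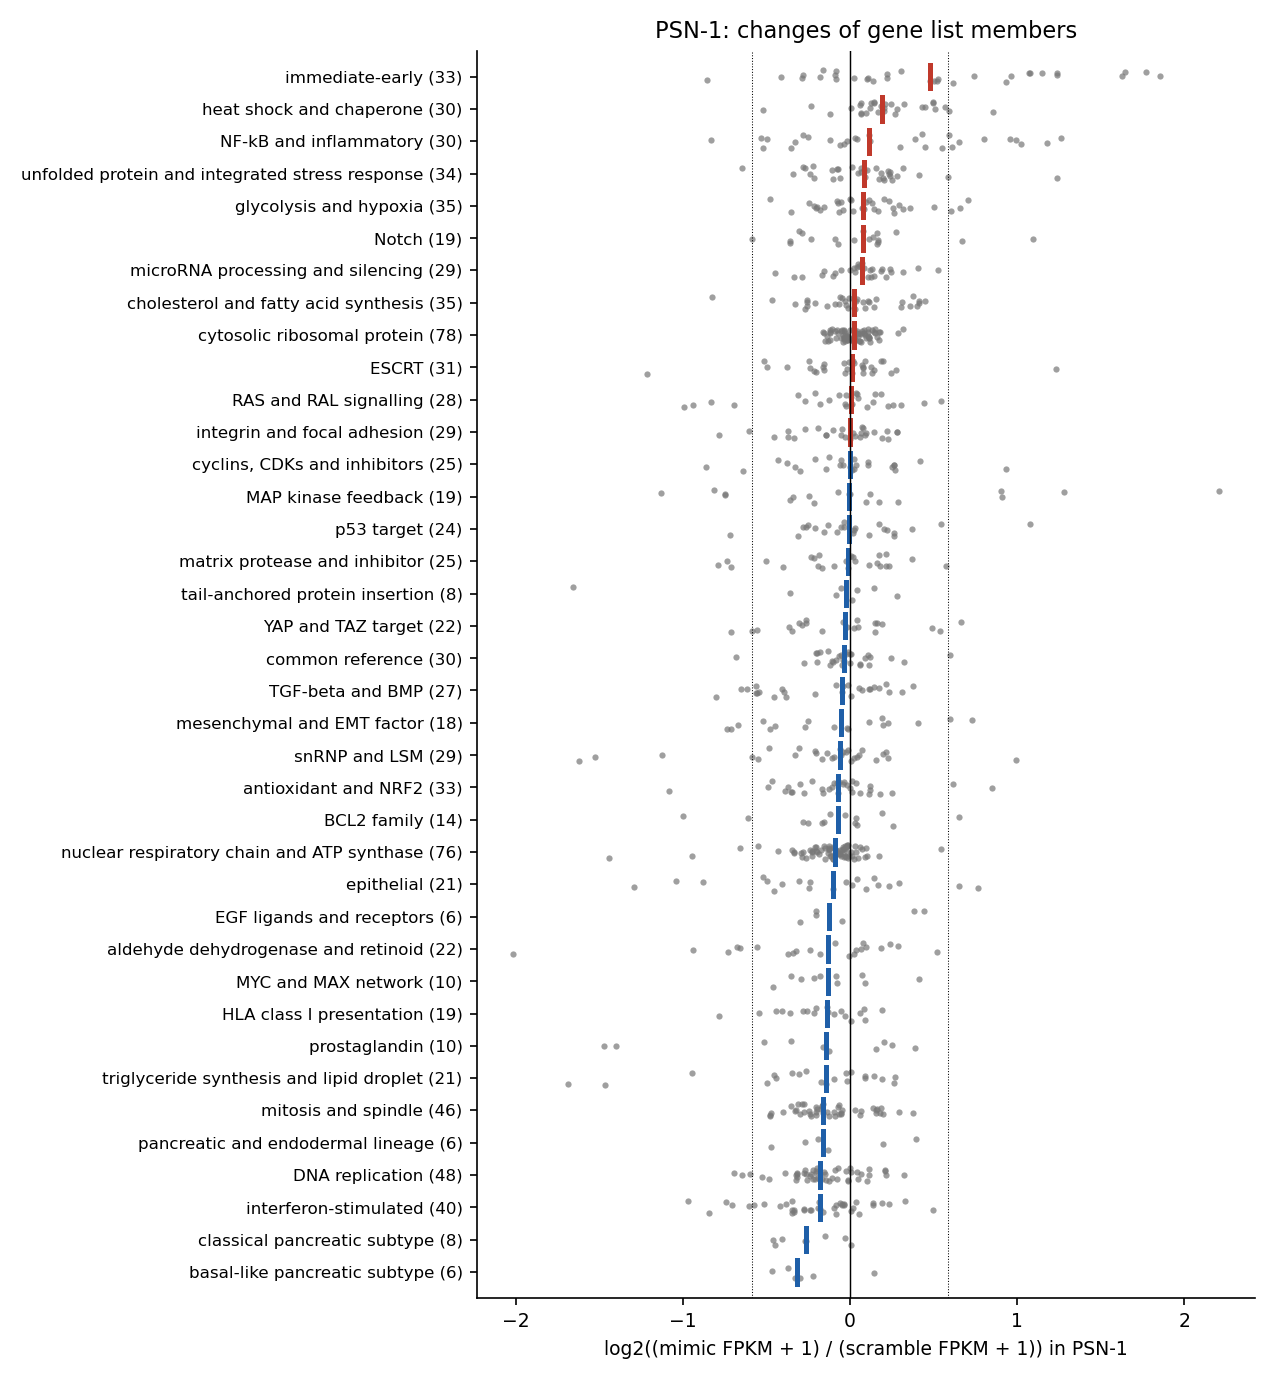
Change of each measured member (grey points) of the 38 gene lists in PSN-1, as log2 of (mimic FPKM + 1) over (scramble FPKM + 1), with the median of each list as a bar (red above 0, blue below) and the number measured in parentheses; dotted lines are at 1.5-fold. Immediate-early genes have the highest median (0.48) and basal-like subtype genes the lowest (-0.32, 6 genes), and the ribosomal protein genes lie close around 0.

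Genes with a miR-4800-3p site in the 3′ UTR were more often below 0 than other genes. Among the 8953 measured genes whose longest annotated 3′ UTR was searched, 52.5% were below 0, 3.12% at least 1.5-fold lower and 1.98% at least 1.5-fold higher. Of the 228 with a 7-mer or 8-mer site, 154 were below 0 (67.5%), 22 at least 1.5-fold lower (9.65%) and 4 at least 1.5-fold higher (1.75%). Their median was -0.13, against -0.011 for the 8429 genes without the core, of which 51.9% were below 0 and 2.82% at least 1.5-fold lower. The 8-mer carriers had the lowest median, and the 7-mer ending in A was no lower than the core alone. The 20 genes with the 8-mer had a median of -0.21 with 16 below 0, the 122 with the 7-mer that pairs with bases 2 to 8 had -0.14 with 88 below 0, the 86 with the 7-mer ending in A had -0.052 with 50 below 0, and the 296 with the core alone had -0.056. The 347 genes with a site in the coding sequence and no core in the 3′ UTR had a median of -0.087, with 219 below 0 and 27 at least 1.5-fold lower (7.78%). Genes with neither had a median of -0.0080.

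Most carriers of a site differed little, and those named here are the 12 lowest. After ALDH1A3 and AGPAT9 came CFL2, the muscle form of the actin-severing cofilin, at 6.49 FPKM under the mimic and 17.5 under the scramble (-1.31), and MYADM, a membrane protein, at 16.3 and 38.6 FPKM (-1.20). CAT followed, and RGS3, which shortens G protein signals, was at 37.7 and 77.2 FPKM (-1.02). COMMD6, a small partner of the COMM domain complex, was at 3.88 and 8.61 FPKM (-0.98), the orphan nuclear receptor NR2F1 at 10.4 and 19.5 FPKM (-0.85), and the Ras-like GTPase RALB at 13.4 and 24.6 FPKM (-0.83). SPRY4, PLAT and the tRNA-modifying enzyme DUS3L (5.58 and 10.3 FPKM, -0.79) completed the 12. Of the 20 genes with the 8-mer, 4 were at least 1.5-fold lower: ALDH1A3, RGS3, PLAA (8.95 and 15.5 FPKM) and STAT6, the interleukin 4 signal transducer (26.5 and 43.5 FPKM, -0.70). On the other side, URM1 (10.96 and 9.32 FPKM) and KLC1 (36.7 and 32.1 FPKM) carry the 8-mer and were above 0. The 4 carriers at least 1.5-fold higher were CD83 (12.1 and 4.84 FPKM), HAS3, PNRC2 and ABL2. STK25, a kinase with the 7-mer that pairs with bases 2 to 8, was at 21.5 and 25.4 FPKM (-0.23), and was named after its value was seen.

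**Figure D4:**
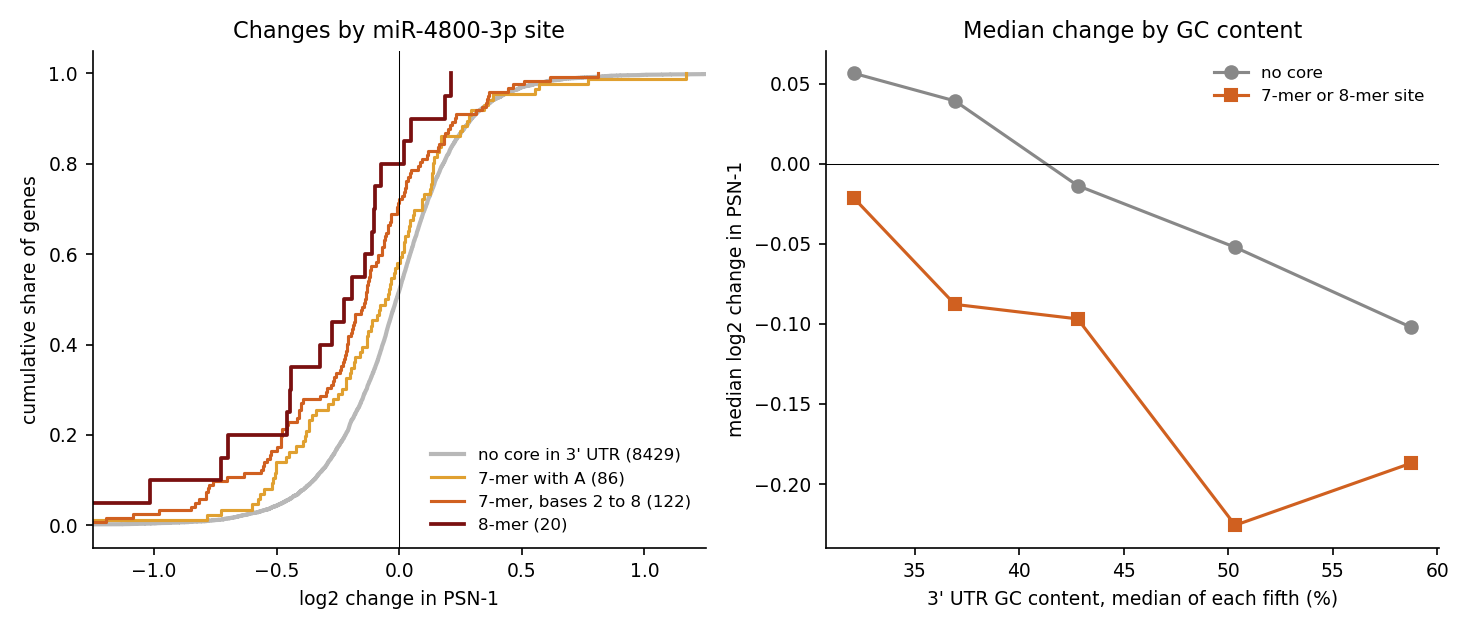
Left, cumulative share of genes (vertical) against the PSN-1 change (horizontal, log2; 34 genes lie beyond the axis) for genes without the core in the 3′ UTR and for carriers of each kind of site; right, median change (vertical, log2) in 5 groups of equal size by 3′ UTR GC content (horizontal, %), for carriers of a 7-mer or 8-mer and for genes without the core. The 8-mer curve lies farthest to the left (median -0.21), and in each of the 5 groups the carriers lie below the genes without the core.

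The changes in PSN-1 also moved with base composition. In 5 groups of equal size by 3′ UTR GC content, with median GC of 32.1%, 36.9%, 42.8%, 50.3% and 58.8%, the median change was 0.055, 0.036, -0.015, -0.055 and -0.11. The genes at least 1.5-fold lower numbered 22, 39, 54, 72 and 92 in that order. Those at least 1.5-fold higher had a median 3′ UTR GC content of 39.2%, those at least 1.5-fold lower 49.0%, and all searched genes 42.8%. Within the 5 groups the median of site carriers minus that of genes without the core was -0.078, -0.13, -0.083, -0.17 and -0.085, below 0 in each. With the trend on GC content removed, the difference over all groups was -0.11, the same as without that step. In MIA PaCa-2 the medians of the same 5 groups were 0.0021, 0.039, 0.020, 0.0029 and -0.0028. With the trend removed, 5 of the 38 list medians crossed 0, all from values close to it: integrin, matrix protease, p53 target, RAS and RAL, and tail-anchored insertion genes. The medians of the immediate-early (0.48), heat shock (0.15) and interferon-stimulated genes (-0.14) kept their sides of 0.

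The other pair of libraries, from MIA PaCa-2, shares no library with PSN-1 and gives the only repeat of the treatment, in another line; no difference between the lines could be tested. Of the 7936 genes measured in both lines, 4.55% were at least 1.5-fold higher and 2.84% at least 1.5-fold lower in MIA PaCa-2, and 52.5% were above 0. Of the 33 genes at least 2-fold higher in PSN-1, 23 were measured there, 20 had the same sign and 13 were at least 1.5-fold higher there too. Of the 47 at least 2-fold lower in PSN-1, 33 were measured, 26 had the same sign and 17 were at least 1.5-fold lower. Another 13 of the 47 had less than 1 FPKM with either oligonucleotide there, among them AMIGO2, PTGIS, PLIN4 and ADAMTS15. The same held for 3 of the 33 higher genes. At 1.5-fold it held for 62 of the 295 lower and 23 of the 195 higher genes. The share over all genes measured in PSN-1 is not given here, so these counts cannot be called unusual. SNRPE (-1.55 in MIA PaCa-2), LSM6 (-1.63), ATP5I (-1.41), AGPAT9 (-1.16) and PTGES2 (-1.04) were low in both lines, as DUSP8 (1.73), PTPMT1 (2.49) and STC1 (1.17) were high in both. ALDH1A3, the lowest gene of PSN-1 apart from H3F3A, was at 25.9 FPKM under the mimic and 29.7 under the scramble in MIA PaCa-2 (-0.19). Among the other low site carriers of PSN-1, MYADM was higher there (18.0 and 12.2 FPKM, 0.53), and NR2F1 (-0.06) and SPRY4 (0.08) were near 0. RGS3 (-1.42), DUS3L (-1.17), CAT (-0.98), RALB (-0.71), COMMD6 (-0.56) and CFL2 (-0.46) were lower there too, and PLAT was below the filter.

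The immediate-early list had a similar median in both lines, 0.48 in PSN-1 and 0.46 in MIA PaCa-2, while some members differed. In MIA PaCa-2, 27 of 31 measured were above 0, 13 at least 1.5-fold higher and 1 at least 1.5-fold lower. NR4A1 was at 40.3 FPKM under the mimic and 40.8 under the scramble in MIA PaCa-2 (-0.02, against 1.77 in PSN-1), and FOS at 505 and 687 FPKM (-0.44, against 1.15). ZFP36L1 was the reverse, at 1.20 there against -0.86 in PSN-1. Over the 31 immediate-early genes measured in both lines, 20 were higher with the mimic in both, 3 in PSN-1 alone and 7 in MIA PaCa-2 alone. The MAP kinase feedback list had a median of 0.51 in MIA PaCa-2, with 15 of 16 measured above 0, against -0.01 in PSN-1. Its member DUSP5 had a change of 0.81 in MIA PaCa-2 against -0.75 in PSN-1. Of the 30 heat shock and chaperone genes, 24 were higher in PSN-1 and lower in MIA PaCa-2, 3 were higher in both and 3 lower in both. HSP90AA1 was at 1638 and 1959 FPKM in MIA PaCa-2 (-0.26) and HSPA1A, an inducible HSP70, at -0.62 there and 0.51 in PSN-1. Interferon-stimulated genes had a median of 0.0085 in MIA PaCa-2, with 14 of 25 measured above 0 and 11 below, against -0.18 in PSN-1. Replication and mitosis genes were lower in both lines in 33 of 47 and 30 of 44 genes measured in both. Among all 7936 genes, 2320 were higher in both lines, 2219 lower in both, 1552 higher in PSN-1 and lower in MIA PaCa-2, and 1845 the reverse.

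**Figure D5:**
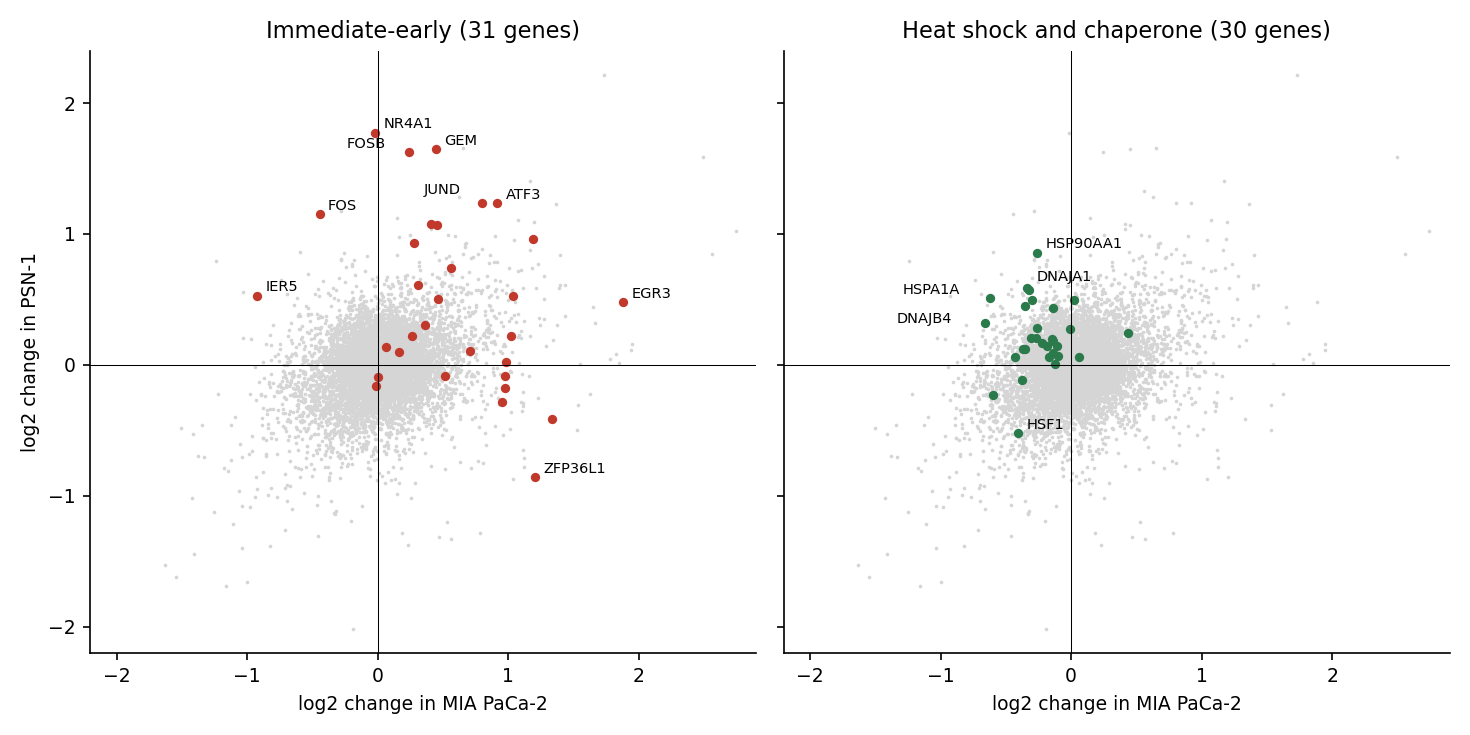
PSN-1 change (vertical, log2) against MIA PaCa-2 change (horizontal, log2) for the 7936 genes measured in both lines (grey; 3 lie beyond the axes), with the 31 immediate-early genes (left, red) and the 30 heat shock and chaperone genes (right, green) marked, 1 pair of libraries per axis. NR4A1 and FOS are high on the vertical axis alone, and 24 of the 30 chaperone genes lie in the upper left of the right panel.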

How the data were processed

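RNA from PSN-1 cells transfected with the mimic or the scramble, 1 library each, was extracted (miRNeasy Micro) and made into TruSeq stranded mRNA libraries, per the labels' protocols. Per the file headers, the authors deposited 1 FPKM value per symbol and library. Cuffdiff 2.2.1, TopHat2 2.1.1 and hg19 appear in the submitters' processing notes. How libraries were scaled, which annotation was used and whether strand was counted is not given in the sources used here. Since FPKM is relative to the library total, a large change in the most abundant genes would shift the rest.

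From these values, log2 changes were computed with a pseudocount of 1 for symbols averaging 5 FPKM or more, without the short RNA prefixes MIR, SNOR, SCARNA, RNU, RNY, RN7S and VTRNA. With 1 library per group no test was run. The depth estimate used the most frequent ratio of low values, of which 82.5% of 709 gene pairs were ratios of whole numbers up to 6 within 0.5%, and 184 single-transcript genes, assuming fragments of 200 bases. Counting errors from it leave out the spread between cultures. The accuracy of the depth estimate in these libraries, and of the fold counts for genes near 5 FPKM, was not tested.

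Sites were searched in the longest 3′ UTR of GENCODE 29 (GRCh38, another build than hg19), joined on symbols and older symbols: 9111 of the 9172 genes matched and 8953 had a 3′ UTR. Named genes were the 15 highest and 15 lowest changes, up to 4 members with the largest change of each list with its defining members, the 12 lowest site carriers, and genes past 2-fold in PSN-1 but past 1.5-fold the other way in MIA PaCa-2. A few genes that this rule names are not reported here. The members and the 38 gene lists were chosen with earlier results of these data known, so their counts are descriptions. Alternatives were other pseudocounts, filters, scalings, kinds of site and removal of the GC trend. Tables were handled in pandas 2.3.3 under Python 3.11.15, with matplotlib 3.10.9 for plots and numpy 2.4.6 and scipy 1.17.1 for calculations.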

Additional observations from a re-analysis of the deposited data

Results flagged for a closer look

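IRF2BP2, a transcriptional cofactor named for its binding of interferon regulatory factor 2, went opposite ways in the 2 lines. It was at 7.81 FPKM under the mimic and 20.4 under the scramble in PSN-1 (-1.28), and at 42.9 and 24.5 FPKM in MIA PaCa-2 (0.78). It was the 1 gene at least 2-fold lower in PSN-1 that was at least 1.5-fold higher in MIA PaCa-2. The heat shock and chaperone list had a median of 0.19 in PSN-1 and -0.26 in MIA PaCa-2. Both were flagged because the single pair of libraries of each line lay on opposite sides of 0, and neither difference between the lines was tested. Opposite sides were not rare. Of 7936 genes measured in both lines, 1552 were higher in PSN-1 and lower in MIA PaCa-2 and 1845 the reverse. Another 2320 were higher in both and 2219 lower in both. Other list medians also differed in side, such as basal-like genes (-0.32 in PSN-1, 0.45 in MIA PaCa-2) and EGF ligands and receptors (-0.13 and 0.32). Each median is over the genes measured in that line, so the members differ. In both lines, 4 basal-like genes and 5 EGF ligands and receptors were measured.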

How the results depend on the processing

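Counts past a fold moved with the pseudocount and the filter, as they must when fewer or lower genes can pass. With a pseudocount of 5, the genes at least 2-fold higher and lower numbered 19 and 17, and at least 1.5-fold 103 and 152. With a filter of 1 FPKM they were 71 and 76, and 350 and 452, of 12152 genes. With a filter of 20 FPKM they were 17 and 18, and 87 and 121, of 4503 genes. With short RNA symbols kept, 59 genes were at least 2-fold higher. The median of site carriers minus that of genes without the core was -0.11 as reported, between -0.087 and -0.12 under the other pseudocounts, filters and scalings, -0.20 with the 8-mer alone and -0.079 for sites in the coding sequence. Of 304 list medians under alternatives 20 crossed 0. In 17 of these the reported median was at most 0.032 from 0, so the side of 0 of such lists carries no weight. The other 3 were, with the 20 FPKM filter, EGF ligands and receptors (0.17, 4 genes) and prostaglandin genes (0.20, 5 genes), and, with the 1 FPKM filter, Notch genes (-0.020, 28 genes). For the 15 highest, the 15 lowest and the 12 lowest site carriers (40 genes in all), no change crossed 0 in 294 values under alternatives. This carries no weight, since the genes were picked for large changes and a pseudocount or filter cannot move a gene across 0. Of the 294 values, 37 moved by more than the counting error allows. Median-ratio scaling shifted all changes by 0.015 and scaling to the same summed FPKM by -0.0038. The planned search for miR-4800-5p sites was not run because the table of sequences used holds no mature entry for it. No paired analysis was possible because each group has 1 library and the labels give no replicate numbers.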

Other observations

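Smaller gene groups of the PSN-1 comparison had medians near 0 with a few members far from it. In the Notch pathway (19 measured, median 0.08) the ligand JAG1 was at 262 FPKM under the mimic and 122 under the scramble (1.09) and the DNA-binding factor RBPJ at 35.3 and 21.9 FPKM (0.67), while the co-activator MAML1 was at 7.37 and 11.6 FPKM (-0.59). In the TGF-beta and BMP pathway 3 of 27 measured genes were at least 1.5-fold lower and 0 higher: the inhibitory SMAD6 (14.1 and 25.2 FPKM), the ligand BMP4 (6.42 and 10.7 FPKM) and ID2 (30.9 and 47.9 FPKM), a target of BMP signals. The target ID1 was at 14.3 and 21.6 FPKM (-0.57), and SMAD4, the shared signal transducer, was listed at 0 in both libraries. Among RAS and RAL genes 4 of 28 measured were at least 1.5-fold lower and 0 higher, with a median of 0.01: HRAS at 19.4 and 39.5 FPKM (-0.99), the kinase MAPK3 (ERK1) at 13.8 and 27.5 FPKM (-0.94), RALB, and its activator RALGDS at 46.0 and 75.2 FPKM (-0.70). NRAS was at 33.3 and 22.6 FPKM (0.54). In the BCL2 family (14 measured, median -0.07) 6 genes were above 0 and 8 below. The pro-apoptotic BMF was at 10.5 and 22.01 FPKM (-0.999) and BAK1, also pro-apoptotic, at 28.7 and 35.0 FPKM (-0.28). Among survival genes, the short-lived MCL1 was at 186 and 118 FPKM (0.65), while BCL2L1 was at 11.7 and 18.4 FPKM (-0.61).

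Glycolysis and hypoxia genes were above 0 in 22 of 35 measured, with 3 at least 1.5-fold higher: the glucose transporter SLC2A3 (179 FPKM under the mimic and 109 under the scramble), NDRG1 (76.4 and 48.1 FPKM) and the histone demethylase KDM3A (48.5 and 31.5 FPKM). Cholesterol and fatty acid genes were split, 18 above 0 and 17 below, with ELOVL6, which lengthens fatty acids, at 9.13 and 17.0 FPKM (-0.83). All 29 listed genes of microRNA processing and silencing were measured, 20 above 0 and 9 below, with 0 past 1.5-fold. DICER1, which cuts precursors to mature microRNAs, was at 8.87 and 12.49 FPKM (-0.45), and AGO2, which carries them, at 67.7 and 58.3 FPKM (0.21). MXD4, in whose locus the microRNA lies, was at 19.9 and 21.1 FPKM (-0.08). Of the 8 measured classical pancreatic subtype genes 7 were below 0 (median -0.26), led by the trefoil factors TFF1 (27.2 and 37.9 FPKM) and TFF2 (23.9 and 33.0 FPKM), and of 6 basal-like genes 5 were (median -0.32). The p53 target, YAP and TAZ target, integrin and matrix protease lists had medians of -0.01, -0.03, 0.00 and -0.01.

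The remaining lists were MYC and MAX network genes (median -0.13, 10 measured), pancreatic and endodermal lineage factors (-0.16, 6 measured) and common reference genes (-0.04, 30 measured). In the reference list IPO8, a nuclear import receptor, was at 16.8 FPKM under the mimic and 27.5 under the scramble (-0.68) and RAB7A, a late endosome GTPase, at 107 and 70.2 FPKM (0.60), so these 2 common normalisers were past 1.5-fold in opposite directions. By transcript length, 5 groups of equal size with median lengths of 1616 to 7597 bases had median changes of -0.063, -0.034, -0.0013, 0.0040 and 0.029, and the genes at least 1.5-fold lower numbered 80, 65, 61, 40 and 33. Transcript length and 3′ UTR GC content were not separated.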
